A study of Mus musculus with 6 samples.

Results

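The handling of long-chain fatty acids by the liver was described through 9 genes, selected by symbol as the genes of fatty acid uptake and intracellular binding among the 24346 rows of the deposited expression table. They are Cd36, the FATP genes Slc27a1, Slc27a2 and Slc27a4, the FABP genes Fabp1, Fabp2, Fabp4 and Fabp5, and Dbi. All 9 had a row and a value above 0 in every liver, and all 9 passed the filter of a mean of at least 0.5 FPKM (fragments mapped to the gene, scaled to transcript length and to all mapped fragments) over the 6 livers. RNA was sequenced from 3 control livers and 3 lipophagy-induced livers of male C57BL/6 mice (C57BL/6J in the study's methods). From an age of 8 weeks, the mice of both groups were fed CDAHFD, a high-fat diet that lacks choline and supplies defined L-amino acids in place of protein, for 6 weeks. They then received an intravenous AAV8 vector in which the liver-specific TBG promoter drives an adapter protein with mCherry, were returned to normal chow, and were analysed 2 weeks later. The control vector encodes LDTS-LIR mut and that of the lipophagy-induced mice LDTS-eLIR. In these adapters a lipid droplet-targeting sequence (LDTS) is joined to a mutated or an engineered LC3-interacting region (LIR). Both groups therefore carried the LDTS of perilipin 1, which the study describes as partly lipogenic, and both had been on the diet. Neither a liver without the vector nor a liver kept on normal chow throughout was analysed here. The comparison asks whether transcripts of fatty acid uptake and binding differ when autophagy of lipid droplets is induced in hepatocytes.

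Long-chain fatty acids reach the hepatocyte bound to albumin or are set free from lipoproteins by lipases. CD36, a scavenger receptor, and the fatty acid transport proteins (FATP, encoded by the Slc27a genes) promote their uptake, and FATP proteins also join fatty acids to coenzyme A. Inside the cell, fatty acid-binding proteins (FABP) carry the free acid through the cytosol, and the acyl-CoA-binding protein encoded by Dbi carries the activated acyl-CoA ester. FABP1 is the liver form and one of the most abundant cytosolic proteins of hepatocytes, FABP2 is best known from the small intestine, and FABP4 and FABP5 are best known from adipocytes, macrophages and skin.

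Summed FPKM over all rows was 622696 to 681138 in control livers and 709993 to 782392 in lipophagy livers. The depth estimated from the steps of low values was 23.4 to 33.9 M fragments in control livers and 22.9 to 24.5 M in lipophagy livers. Across genes, any pair of livers had a Spearman correlation of 0.98 to 0.991. Single livers stood apart for some transcripts. Lipophagy liver 2 had a summed level of red cell markers of 483 FPKM against 109 to 169 FPKM in the other livers, and lipophagy liver 3 had the highest values of Angptl8, Mfsd2a, Lipg and G0s2. With any single liver left out, the log2 change of Fabp1 stayed between 0.41 and 0.55. The defining transcript of hepatocytes, Alb, was at 35470 to 64089 FPKM. The summed level of 10 hepatocyte markers was 60349 to 68237 FPKM in control livers and 73930 to 96153 FPKM in lipophagy livers, without overlap. Most of each sum was Alb alone, at 35470 to 39159 FPKM in control and 45009 to 64089 FPKM in lipophagy livers. This sum therefore mainly follows a single gene. In whole liver, fewer cells of a type and less RNA per cell cannot be told apart.

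Expression of the 9 genes spanned 6794-fold, from Fabp1 to Slc27a1. Averaged over the 6 livers, Fabp1 stood 7.16-fold above Dbi, and Dbi 3.88-fold above Slc27a2. Slc27a2 was 5.85-fold above Fabp5. Fabp5 and Fabp2 differed only 1.03-fold, Fabp5 was the higher of the pair in 3 of 6 livers, and their ranges overlapped. Below them came Cd36, 2.77-fold under Fabp2, then Fabp4, 1.55-fold under Cd36, Slc27a4, 2.43-fold under Fabp4, and Slc27a1, 3.89-fold under Slc27a4. Except for Fabp5 and Fabp2, neighbours kept this order in 6 of 6 livers and their ranges did not overlap. FPKM is scaled to transcript length, so these levels may be set side by side within the limits of that scaling. The annotation used for it is not given. Fabp1 and Dbi have the shortest principal transcripts of the 9 genes in the GENCODE annotation, at 553 and 569 bases.

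**Figure D1:**
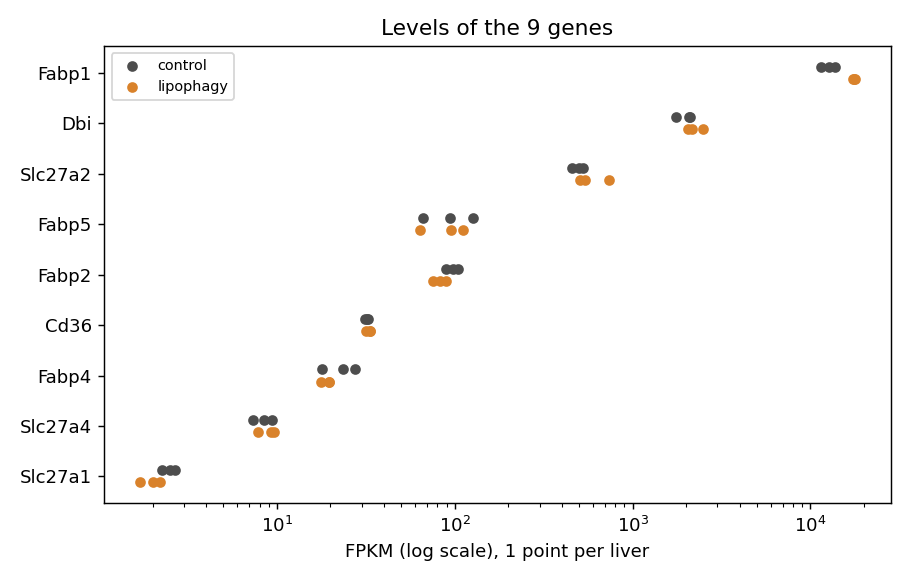
Levels of the 9 genes in FPKM on a log axis, with 1 point for each liver, control livers in grey and lipophagy livers in orange. The genes span 6794-fold, and only Fabp5 and Fabp2 overlap in their ranges.

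Of the 9 genes, 0 differed between the groups at an adjusted p below 0.05 (limma with Benjamini-Hochberg adjustment over all genes), where 0.0261% of the 11493 genes tested did (3 genes, all lower). At an unadjusted p below 0.05 the count was 3 of 9, with Fabp1 higher and Fabp2 and Slc27a1 lower, against 19.5% of all genes tested. By direction this background was 11.5% higher and 7.97% lower, which with quantile normalization became 6.48% higher and 7.82% lower. The 3 control and the 3 lipophagy livers did not overlap for 2 of 9 genes, Fabp1 and Slc27a1, against 26.2% of all genes tested (15.4% higher and 10.8% lower). The median log2 change of the 9 genes was 0.027, with 5 positive and 4 negative, and that of all genes tested was 0.020.

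**Figure D2:**
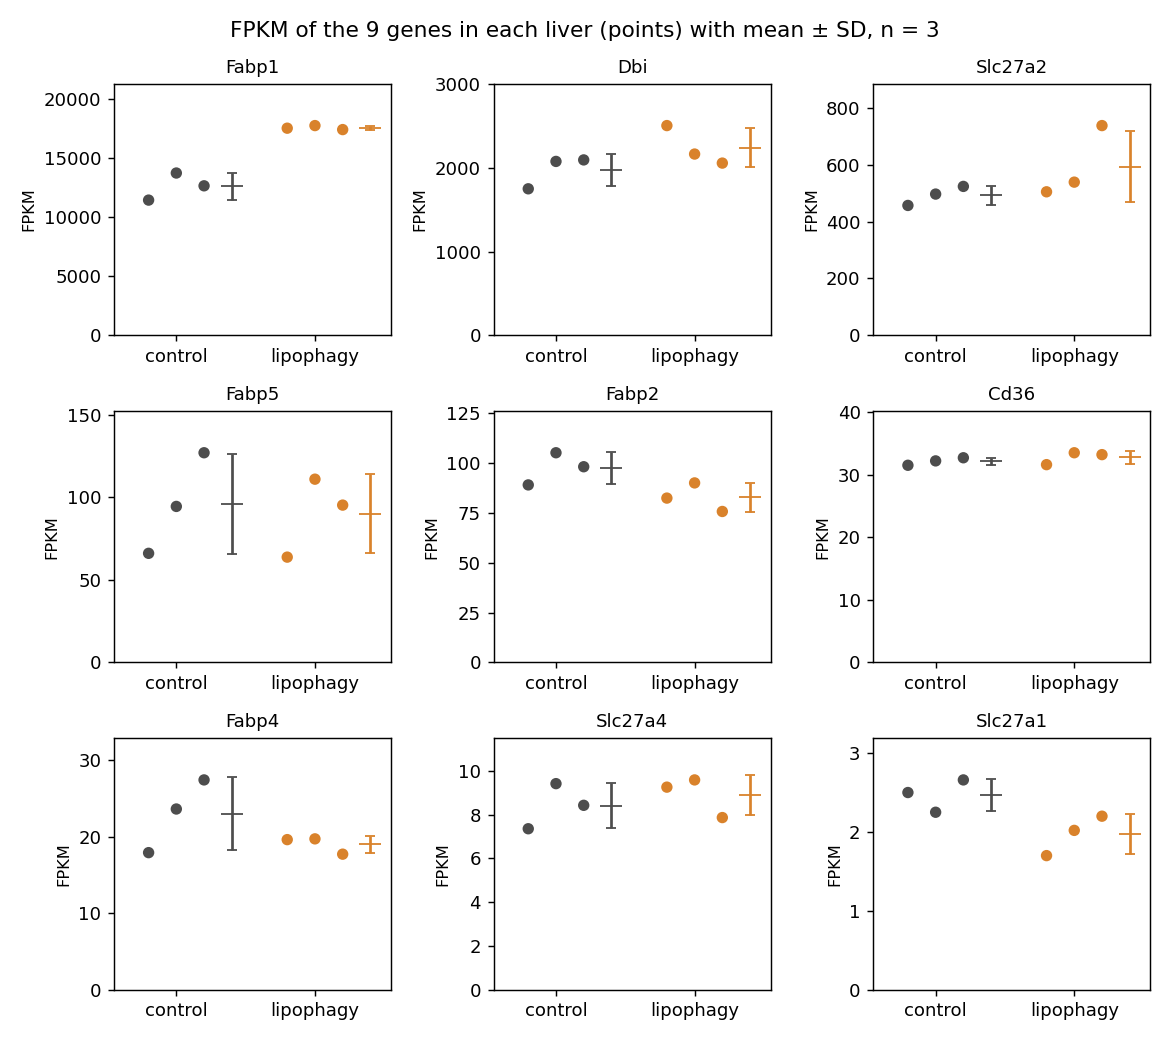
FPKM of each of the 9 genes in the 3 control livers (grey) and the 3 lipophagy livers (orange), with the mean and SD beside them (n = 3). The groups are apart for Fabp1, which is higher, and for Slc27a1, which is lower, and they overlap for the other 7 genes.

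Fabp1 had the largest log2 change of the 9 genes on the deposited scale, but not with quantile normalization, where Fabp2 (-0.38) and Fabp4 (-0.33) lay further from 0 than Fabp1 (0.26). It was listed at 11452, 13745 and 12662 FPKM in control livers 1, 2 and 3 and at 17542, 17763 and 17424 FPKM in lipophagy livers 1, 2 and 3. Every lipophagy liver lay above every control liver, and the lipophagy livers lay closer together than the control livers. The mean was 12620 ± 1147 FPKM (SD, n = 3) in control and 17576 ± 172 FPKM (SD, n = 3) in lipophagy livers, a ratio of 1.39. The log2 change was 0.48 with a standard error of 0.12 and a 95% interval of 0.21 to 0.76 (limma, unadjusted p = 0.00371, adjusted p = 0.135). Without the filter on low values the standard error was 0.22 and the unadjusted p 0.0684 (limma). With an estimated 121376 to 172983 fragments per liver, counting error is a negligible part of this spread.

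Fabp1 ranked between 4 and 6 among all rows of the table in every liver. It made up 1.84%, 2.09% and 1.86% of the summed FPKM in control livers and 2.24%, 2.42% and 2.45% in lipophagy livers. The difference of the mean shares was 0.442 percentage points (two-sided exact permutation test, p = 0.1, the smallest that 3 livers against 3 allow). All 9 genes together held 2.23% to 2.52% of the summed FPKM in control and 2.65% to 2.88% in lipophagy livers, most of it from Fabp1. With quantile normalization the log2 change of Fabp1 was 0.26 (limma, adjusted p = 0.340).

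Some hepatocyte transcripts were higher in the same livers. Of the 10 hepatocyte markers, 8 had a positive and 2 a negative log2 change, and the median was 0.28. At an unadjusted p below 0.05 there were 5, all higher, and at an adjusted p below 0.05 there were 0 (limma). Among all genes tested, 54.5% had a positive log2 change and 11.5% were higher at an unadjusted p below 0.05. The 10 markers ranged from -0.062 for Apoa1 and -0.027 for Apob to 0.47 for Alb. Alb, the marker with the highest level, had a standard error of 0.17. Relative to Alb, Fabp1 stood at 0.297, 0.388 and 0.323 in control livers and at 0.274, 0.395 and 0.355 in lipophagy livers. These ratios, chosen after the values were seen, overlapped (two-sided exact permutation test, p = 0.900). Relative to the mean log2 value of all 10 markers, also chosen after the values were seen, the log2 change of Fabp1 was 0.24 (standard error 0.14, limma, adjusted p = 0.198), where the median of all genes was -0.22. The part of the hepatocyte transcripts in the Fabp1 difference was not tested.

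The promoter of Fabp1 is shown beside that of Fabp2 because both genes belong to the same family, and in these livers they lay on opposite sides. In GENCODE (GRCm38, the build named mm10), Fabp1 lies on chromosome 6 from 71199827 to 71205023 on the plus strand and Fabp2 on chromosome 3 from 122895072 to 122899506 on the plus strand, each with 4 exons. The sequences are the 250 bases before the RefSeq start (GRCm38.p6), at chr6:71199629-71199878 and chr3:122894822-122895071, both on the plus strand. Capitals mark a match to TGACCT and TGNCCT with a single base N between them, a pair of nuclear receptor half-sites in the arrangement that PPAR-RXR dimers are known to bind.
Fabp1: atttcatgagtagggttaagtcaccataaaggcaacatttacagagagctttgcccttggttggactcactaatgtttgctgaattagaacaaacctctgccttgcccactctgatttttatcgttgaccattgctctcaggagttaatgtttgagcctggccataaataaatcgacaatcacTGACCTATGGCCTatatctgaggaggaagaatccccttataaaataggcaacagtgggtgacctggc
Fabp2: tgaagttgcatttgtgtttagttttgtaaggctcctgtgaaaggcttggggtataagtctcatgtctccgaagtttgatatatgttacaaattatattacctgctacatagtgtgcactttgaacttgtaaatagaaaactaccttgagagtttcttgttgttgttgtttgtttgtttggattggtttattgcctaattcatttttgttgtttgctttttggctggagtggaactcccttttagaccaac
The match TGACCTATGGCCT runs from -67 to -55 before the RefSeq start of Fabp1. The starts differ between the annotations, so that 52 bases of this window lie inside the GENCODE gene and the match lies at -15 to -3 before the GENCODE start. Searched on both strands, this pair of half-sites was found in 27 of 32851 windows of 250 bases (0.0822%), and among the 10 windows of 7 members only in that of Fabp1. Within the half-sites, the pattern left open only the base at which the Fabp1 match departs from TGACCT. It thus has the shape of the Fabp1 site, and pairs with other mismatches were not searched for. Windows of Fabp4 and Fabp5 were not analysed here. The half-site TGACCT, which lies within the longer motif, was in 14.0% of all windows and in those of Cd36, Fabp1 and Slc27a2. GTTAAT, part of the HNF1 motif, was in 6.43% of all windows and in that of Fabp1. TGTTTGC, a forkhead motif, was in 4.30% of all windows and in those of Fabp1, Fabp2 and Slc27a2. TATAAA was in 12.4% of all windows and in that of Fabp1. These matches describe the letters of the windows and are not measured binding.

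Fabp2, the intestinal-type FABP, lay on the other side. Its values were 88.9, 105 and 98.0 FPKM in control livers and 82.3, 89.9 and 75.6 FPKM in lipophagy livers. The groups overlapped, since lipophagy liver 2 stood just above control liver 1. The mean was 97.3 ± 8.05 FPKM (SD, n = 3) in control and 82.6 ± 7.18 FPKM (SD, n = 3) in lipophagy livers, with a log2 change of -0.23 (standard error 0.10, 95% interval -0.46 to -0.0075, limma, unadjusted p = 0.0443, adjusted p = 0.248). Without control liver 2 or 3 or lipophagy liver 1 or 3 the unadjusted p was 0.0795 to 0.160 (limma). It was 0.0211 without control liver 1 and 0.0282 without lipophagy liver 2. With quantile normalization the log2 change was -0.38 (limma, unadjusted p = 0.00220, adjusted p = 0.144). Markers of enterocytes were at or near 0, with a sum over 6 markers of 0.0691 to 0.556 FPKM per liver and Sis, the sucrase-isomaltase of the brush border, at 0 in every liver.

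The ratio of Fabp1 to Fabp2 within a liver does not depend on a single scaling factor per liver. It was 129, 131 and 129 in control livers and 213, 198 and 231 in lipophagy livers. The control livers lay within 129 to 131 although Fabp1 itself varied among them from 11452 to 13745 FPKM, and every lipophagy liver lay above them. The mean ratio was 130 ± 1.15 (SD, n = 3) in control and 214 ± 16.5 (SD, n = 3) in lipophagy livers (exact permutation test, two-sided, p = 0.1, the smallest possible). The difference of 84.1 stayed between 75.7 and 92.2 when any single liver was left out. This ratio was chosen after the values were seen. It divides a gene that was higher by a gene that was lower, so its separation was largely set by that choice.

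**Figure D3:**
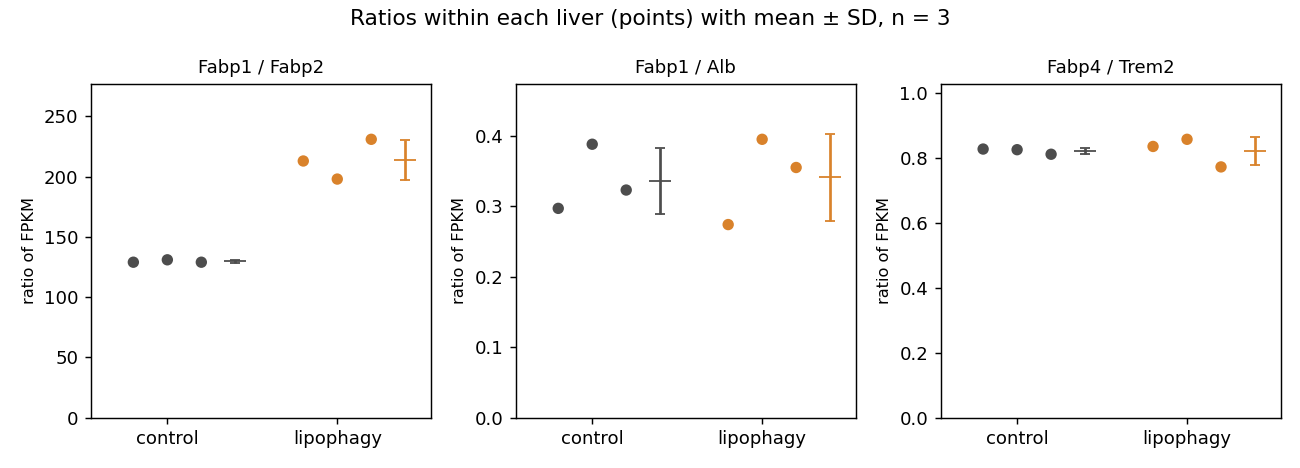
Ratios of FPKM within each liver (points, control in grey and lipophagy in orange) with the mean and SD (n = 3), for Fabp1 to Fabp2, Fabp1 to Alb and Fabp4 to Trem2, on axes that start at 0. Fabp1 to Fabp2 is 129 to 131 in control and 198 to 231 in lipophagy livers, whereas the groups overlap in the other ratios. The ratios were chosen after the values were seen.

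Fabp4 and Fabp5, the FABP forms of adipocytes and macrophages, overlapped between the groups. Both lie on chromosome 3, with Pmp2 and Fabp9 between them and 187481 bases from the end of Fabp5 (10012548 to 10016607, plus strand) to the start of Fabp4 (10204088 to 10208576, minus strand). Fabp4 was at 17.9, 23.6 and 27.4 FPKM in control livers and at 19.6, 19.7 and 17.7 FPKM in lipophagy livers, with a log2 change of -0.24 (standard error 0.14, 95% interval -0.57 to 0.091, limma, adjusted p = 0.379). The control livers were spread and the lipophagy livers lay together near the lowest control liver. The log2 change of Fabp4 was -0.40 without control liver 1, -0.11 without control liver 3 and -0.33 with quantile normalization. Fabp5 was at 66.1, 94.5 and 127 FPKM in control livers and at 63.8, 111 and 95.3 FPKM in lipophagy livers. Its log2 change was -0.078 (standard error 0.26, 95% interval -0.68 to 0.52, limma, adjusted p = 0.888), and -0.23 with quantile normalization. Fabp5 turned positive (0.15) without control liver 3 or lipophagy liver 1, and was at -0.32 without control liver 1. It was the most variable of the 9 genes, with a coefficient of variation of 26.6% over the 6 livers, and both groups began near the same low value. Of the Fabp5 transcript, 41.3% had a copy of at least 95% identity in 2 other annotated genes, so its level is uncertain where reads could be shared.

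Adipocyte markers were measured beside Fabp4. Adipoq, the adiponectin gene, was at most 0.0395 FPKM, and Lep, the leptin gene, was at 0 in every liver. Of 6 adipocyte markers 2 were tested, Adrb3 and Plin1, both with a negative log2 change. The markers not tested had a mean below 0.5 FPKM. Adrb3, a beta-adrenergic receptor, was at 1.38 to 2.41 FPKM (-0.25, standard error 0.12). Plin1 was at 116 to 160 FPKM in control and 81.9 to 97.9 FPKM in lipophagy livers (-0.49, standard error 0.14). The vectors of both groups contain part of its coding sequence, so its level may include vector transcripts. It was not read as a measure of adipocytes. Among 10 markers of monocyte-derived and lipid-associated macrophages, 10 had a negative log2 change and 3 had an unadjusted p below 0.05, all lower. Among all genes tested, 54.5% had a positive log2 change, and 11.5% were higher and 7.97% lower at this p. The summed level of the 10 markers was 316 to 518 FPKM in control and 255 to 407 FPKM in lipophagy livers. The list of macrophages and Kupffer cells was mixed, with 4 positive and 5 negative log2 changes, a median of -0.094 and a summed level of 495 to 645 FPKM in control and 483 to 610 FPKM in lipophagy livers. At an unadjusted p below 0.05, 1 of these was higher, Vsig4 (0.40, standard error 0.12), and 2 were lower, Csf1r and Cd68. The order of the livers by Fabp5 within each group was the order by the sum of monocyte-derived and lipid-associated macrophage markers. This sum was 316, 472 and 518 FPKM in control livers 1, 2 and 3. In lipophagy livers 1, 2 and 3 it was 255, 407 and 294 FPKM. Spp1, the highest of these markers, was at 87.4 to 236 FPKM. The sum of the macrophages and Kupffer cells list kept the order in control livers (495, 615 and 645 FPKM). It did not in lipophagy livers (506, 610 and 483 FPKM). This comparison was not planned. The ratio of Fabp4 to Trem2, the receptor that marks lipid-associated macrophages, was 0.827, 0.825 and 0.811 in control livers and 0.835, 0.857 and 0.772 in lipophagy livers. It had a coefficient of variation of 3.47% over the 6 livers, whereas that of Fabp4 alone was 18.0%. Trem2 was chosen for this ratio after the values were seen, and the part of macrophage and adipocyte transcripts in the levels of Fabp4 and Fabp5 was not tested.

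Together, the 4 FABP genes of the selection were dominated by Fabp1. Its share of the FPKM of the FABP family, counted over Fabp1 to Fabp7, was 98.4%, 98.3% and 97.9% in control livers and 99.0%, 98.7% and 98.9% in lipophagy livers. The livers of the groups lay apart, and the difference of the means was 0.631 percentage points (exact permutation test, two-sided, p = 0.1). Of 11 other genes of the FABP superfamily of lipid-binding proteins, only 2 had a mean of at least 0.5 FPKM, among them Fabp7, and 3 were at 0 in every liver. Fabp7, the brain-type FABP, was at 12.9 ± 1.85 FPKM (SD, n = 3) in control and 12.6 ± 0.754 FPKM (SD, n = 3) in lipophagy livers, with a log2 change of -0.023. Of these 2 genes, 0 had an unadjusted p below 0.05.

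Cd36 was the most constant of the 9 genes. It was at 31.5, 32.2 and 32.7 FPKM in control livers and at 31.6, 33.5 and 33.2 FPKM in lipophagy livers. All 6 values lay between 31.5 and 33.5 FPKM, and the groups overlapped. The coefficient of variation was 2.47%, and 99.5% of the genes tested had a larger SD over the 6 livers on the log2 scale. The log2 change was 0.027 with a standard error of 0.070 and a 95% interval of -0.14 to 0.19 (limma, unadjusted p = 0.713, adjusted p = 0.854), and it was -0.10 with quantile normalization. Cd36 lies on chromosome 5 from 17781690 to 17888801 on the minus strand and is a known target of PPAR-gamma in the fatty liver. Pparg itself was at 11.3 ± 2.02 FPKM (SD, n = 3) in control and 9.46 ± 1.37 FPKM (SD, n = 3) in lipophagy livers, and its log2 change was -0.23 with a standard error of 0.14 (limma, adjusted p = 0.390).

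Of the FATP genes, Slc27a2 was the highest. FATP2, its product, takes part in uptake at the plasma membrane and activates very-long-chain fatty acids. Slc27a2 was at 457, 497 and 524 FPKM in control livers and at 505, 539 and 738 FPKM in lipophagy livers. The groups overlapped, and lipophagy liver 3 stood above all other livers. The log2 change was 0.25 (standard error 0.15, 95% interval -0.087 to 0.59, limma, adjusted p = 0.370). It was 0.085 without lipophagy liver 3, 0.36 without lipophagy liver 1 (limma, unadjusted p = 0.0439) and 0.040 with quantile normalization. The gene lies on chromosome 2 from 126552407 to 126588243 on the plus strand, and 14.4% of its transcript is shared with Gm26697, a gene on the other strand.

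Slc27a1, the FATP form of muscle and fat, was the lowest of the 9 genes. It was at 2.50, 2.25 and 2.66 FPKM in control livers and at 1.70, 2.02 and 2.20 FPKM in lipophagy livers. Every lipophagy liver was below every control liver, but lipophagy liver 3 and control liver 2 lay close together. The mean was 2.47 ± 0.205 FPKM (SD, n = 3) in control and 1.97 ± 0.257 FPKM (SD, n = 3) in lipophagy livers, with a log2 change of -0.22 (standard error 0.094, 95% interval -0.44 to -0.0082, limma, unadjusted p = 0.0436, adjusted p = 0.248). The unadjusted p was above 0.05 without the filter (0.0595), with quantile normalization (0.0963) and, at 0.0721 to 0.142, without control liver 1 or 3 or lipophagy liver 1 or 2. It corresponded to an estimated 105 to 238 fragments per liver, the fewest of the 9 genes, so that counting error is part of its spread. It lies on chromosome 8 from 71568882 to 71587302 on the plus strand, and 6.0% of its transcript has near-identical copies in other genes. Slc27a4, on chromosome 2 from 29802634 to 29817522 on the plus strand, the FATP form best known from intestine and skin, was at 7.35, 9.41 and 8.42 FPKM in control livers and at 9.25, 9.58 and 7.86 FPKM in lipophagy livers. The livers were mixed in order, and the log2 change was 0.077 (standard error 0.11, 95% interval -0.18 to 0.33, limma, adjusted p = 0.720). It was 0.044 with quantile normalization, -0.0050 without control liver 1, and 0.15 without control liver 2 or lipophagy liver 3.

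The FATP family in these livers consisted almost entirely of 2 genes, Slc27a2 and Slc27a5, which held 98.5% to 99.1% of its FPKM. Slc27a5, which encodes FATP5, the bile acid-CoA synthetase of hepatocytes, was at 336, 306 and 299 FPKM in control livers and at 443, 368 and 389 FPKM in lipophagy livers, without overlap. Its log2 change was 0.35 (standard error 0.10, limma, unadjusted p = 0.00785, adjusted p = 0.160). With quantile normalization it was 0.15 and did not keep an unadjusted p below 0.05. It was the only gene tested among the other 3 FATP genes, since Slc27a3 and Slc27a6 had a mean below 0.5 FPKM.

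Dbi, on chromosome 1 from 120113280 to 120121078 on the minus strand, encodes the acyl-CoA-binding protein and was the most abundant of the 9 transcripts after Fabp1. It was at 1750, 2077 and 2095 FPKM in control livers and at 2505, 2165 and 2057 FPKM in lipophagy livers. The highest value was that of lipophagy liver 1, and lipophagy liver 3 lay below both of control livers 2 and 3. The log2 change was 0.18 (standard error 0.12, 95% interval -0.094 to 0.46, limma, adjusted p = 0.417). It was -0.086 with quantile normalization and 0.10 without control liver 1 or without lipophagy liver 1. As a share of the summed FPKM, Dbi was at a mean of 0.302% in both groups, with livers between 0.281% and 0.320%. Of the 7 other acyl-CoA-binding domain proteins 6 were tested, with a median log2 change of 0.10. Among the 6, 1 was higher and 1 lower at an unadjusted p below 0.05, against 11.5% and 7.97% of all genes tested. Both were without overlap of the groups. With quantile normalization the median was 0.057 and the count 0. The median was 0.053 without lipophagy liver 1 and 0.15 without lipophagy liver 3, where the count was 3, and the count was 1 without control liver 2 or 3 or lipophagy liver 2. Eci2, an enoyl-CoA isomerase with an acyl-CoA-binding domain, was at 110 ± 8.15 FPKM (SD, n = 3) in control and 142 ± 14.6 FPKM (SD, n = 3) in lipophagy livers. Dbil5, a relative of Dbi best known from testis, was at 0.884 ± 0.201 and 0.452 ± 0.205 FPKM.

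**Figure D4:**
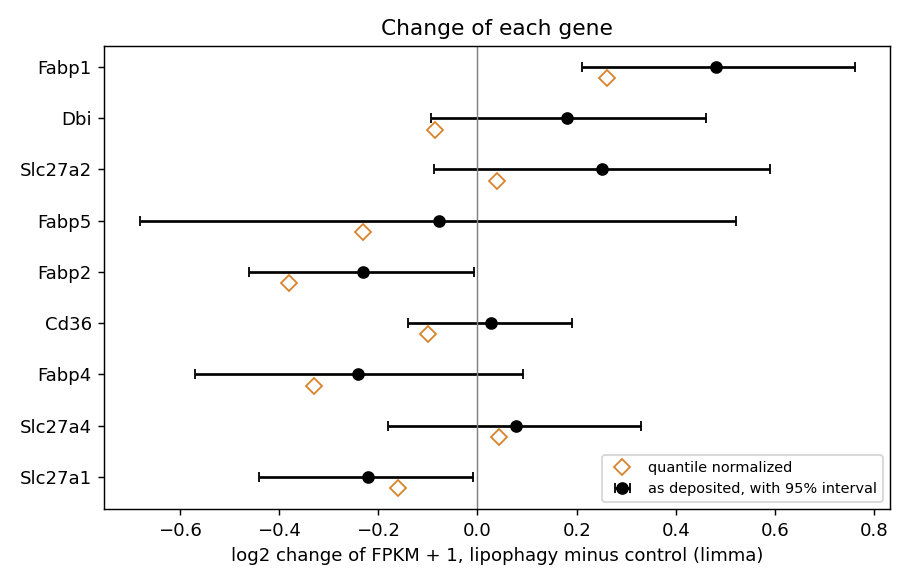
Log2 change of FPKM + 1 in lipophagy against control livers for each of the 9 genes (limma), with its 95% interval (black) and the value after quantile normalization (open orange). The interval lies above 0 for Fabp1 and below 0 for Fabp2 and Slc27a1, and quantile normalization moves Cd36 and Dbi to the other side of 0.

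Genes around the 9 in the same pathway were read from lists, in none of which did a gene pass an adjusted p below 0.05 (limma). Over all genes tested, 11.5% were higher and 7.97% lower at an unadjusted p below 0.05 (limma). The groups did not overlap for 15.4% (higher) and 10.8% (lower) of all genes tested. For acyl-CoA synthetases, which trap fatty acids as acyl-CoA after uptake, 4 of 7 were tested, 4 had a positive log2 change and the median was 0.31. Of the 4, 2 were higher and 0 lower at an unadjusted p below 0.05. With quantile normalization the median was 0.13. The count was 1 with quantile normalization and without control liver 1 or 3 or lipophagy liver 1. Acsl1, the main form of liver and fat, was at 100 ± 2.77 FPKM (SD, n = 3) in control and 124 ± 10.3 FPKM (SD, n = 3) in lipophagy livers without overlap, and Acsl3 had the largest log2 change, 0.34 (standard error 0.14). For 11 other membrane proteins of fatty acid uptake the median was 0.095, with 0 higher and 2 lower at an unadjusted p below 0.05. Without control liver 3 the median was 0.058 and the count 0, and without lipophagy liver 1 the count was also 0. Cav1, caveolin-1, had the largest negative log2 change (-0.31, standard error 0.13) at 1.08 ± 0.351 and 0.664 ± 0.115 FPKM. Mfsd2a, a lysophospholipid transporter, had the largest positive value (0.92, standard error 0.60), with 24.8 FPKM in lipophagy liver 3, the same liver in which Slc27a2 was highest.

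The supply of fatty acids from lipoproteins was followed in 11 lipases, regulators and receptors, of which 10 were tested with a median log2 change of 0.16. At an unadjusted p below 0.05, 2 were higher and 1 lower. The median was 0.061 with quantile normalization, 0.10 without lipophagy liver 1 and 0.25 without lipophagy liver 3, and 5 genes had an unadjusted p below 0.05 when any lipophagy liver was left out. Angptl4, a secreted inhibitor of lipoprotein lipase and a known PPAR target, was at 50.0 ± 10.6 FPKM (SD, n = 3) in control and 94.7 ± 28.6 FPKM (SD, n = 3) in lipophagy livers (log2 change 0.88, standard error 0.25, limma, adjusted p = 0.157). Angptl8, a feeding-induced regulator of lipoprotein lipase, had the largest log2 change (1.52, standard error 0.72), but its groups overlapped and lipophagy liver 3 stood at 423 FPKM against 22.2 to 81.8 FPKM in the other livers. Lrp1, an uptake receptor for lipoprotein remnants, was at 26.6 ± 2.04 and 21.6 ± 1.82 FPKM without overlap, and Lpl, lipoprotein lipase, had the largest negative log2 change (-0.31, standard error 0.18).

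Of 16 transcription factors known for these genes, 16 were tested with a median log2 change of 0.035, which became -0.062 with quantile normalization. At an unadjusted p below 0.05, 1 was higher and 2 lower, each without overlap. The count at this p was 5 without lipophagy liver 2 and 4 without lipophagy liver 3. Foxa2, a forkhead factor of the liver, was at 14.7 ± 2.89 FPKM (SD, n = 3) in control and 8.06 ± 0.988 FPKM (SD, n = 3) in lipophagy livers (log2 change -0.78, standard error 0.14, limma, adjusted p = 0.116). Nfe2l2, which encodes NRF2, was at 43.2 ± 1.61 and 36.0 ± 1.98 FPKM, and Nr1i3, which encodes the nuclear receptor CAR, at 41.9 ± 1.52 and 49.3 ± 0.249 FPKM. Nr1i2, which encodes the receptor PXR, had the largest positive log2 change (0.28, standard error 0.16), and its groups overlapped. Ppara, the receptor known to regulate Fabp1, was at 19.0 ± 2.71 and 18.6 ± 5.13 FPKM with a log2 change of -0.049 (standard error 0.19).

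PPAR-alpha targets other than the 9 genes were 16, all tested, with a median log2 change of 0.13 (0.027 with quantile normalization). At an unadjusted p below 0.05, 6 were higher and 1 lower, against 11.5% and 7.97% of all genes tested. Each was without overlap, as were 15.4% (higher) and 10.8% (lower) of all genes tested. Cyp4a10, a fatty acid omega-hydroxylase, was at 30.7 ± 7.41 FPKM (SD, n = 3) in control and 69.7 ± 18.8 FPKM (SD, n = 3) in lipophagy livers (log2 change 1.15, standard error 0.21, limma, adjusted p = 0.112). Cyp4a14, Acot1, Plin5 and Ehhadh were also higher, with log2 changes of 1.03, 0.63, 0.47 and 0.21. Fgf21, a hormone secreted by the liver, was lower, at 3.16 ± 0.709 and 1.33 ± 0.305 FPKM (log2 change -0.83, standard error 0.15, limma, adjusted p = 0.111).

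Of 6 genes of PPAR-gamma-driven lipid storage 5 were tested, with a median log2 change of -0.14, and at an unadjusted p below 0.05, 1 was higher and 2 lower. Leaving out lipophagy liver 1, 2 or 3 gave a median of -0.020, -0.068 or -0.28, and 1 gene had an unadjusted p below 0.05 without control liver 3. Cidec, which fuses lipid droplets, was at 6.22 ± 0.430 FPKM (SD, n = 3) in control and 1.72 ± 0.953 FPKM (SD, n = 3) in lipophagy livers (log2 change -1.47, standard error 0.22, limma, adjusted p = 0.0897). Plin2, the main droplet coat protein of hepatocytes, was at 202 ± 18.7 and 163 ± 11.0 FPKM without overlap. G0s2, an inhibitor of the triglyceride lipase ATGL, was at 29.5 ± 8.44 and 69.6 ± 40.3 FPKM with overlap. Cd36, also a PPAR-gamma target, stayed within 31.5 to 33.5 FPKM in the same livers.

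**Figure D5:**
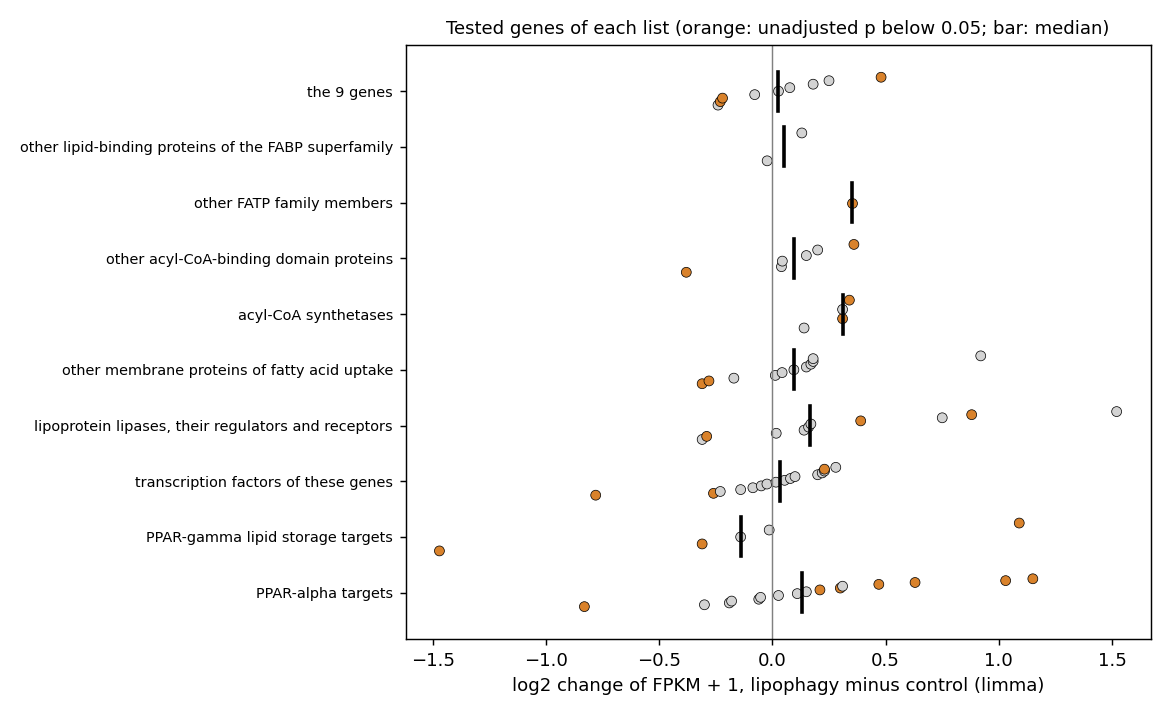
Log2 change of FPKM + 1 in lipophagy against control livers (limma) for each tested gene (points) of the 9 genes and of 9 related lists, with the median of each list as a bar and orange for an unadjusted p below 0.05. The acyl-CoA synthetases have the median 0.31 (0.13 with quantile normalization) and the 9 genes 0.027 (-0.10).

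The genes whose profile over the 6 livers was nearest to that of Fabp1, by the root mean square distance of gene-centred log2 values, were Tm7sf2 (0.0539), a sterol reductase of cholesterol synthesis, Ttc39c (0.0589) and Stbd1 (0.0623), a glycogen-binding protein. Tm7sf2 was at 52.8 ± 4.02 FPKM (SD, n = 3) in control and 70.8 ± 2.05 FPKM (SD, n = 3) in lipophagy livers, a ratio of 1.34 beside the 1.39 of Fabp1. For Slc27a1 the nearest were Rnf19a (0.0256), Bcor (0.0298), a transcriptional corepressor, and Lmnb1 (0.0320), which encodes lamin B1. Rnf19a was at 5.99 ± 0.404 and 4.88 ± 0.449 FPKM, with a log2 change of -0.25 beside the -0.22 of Slc27a1. The distance takes in the difference between the groups, so similar changes follow from how these genes were chosen.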

How the data were processed

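Poly(A) RNA libraries (TruSeq stranded, paired-end reads of 100 bases) of 3 control and 3 lipophagy-induced livers were sequenced on a HiSeq instrument per the labels and a NovaSeq instrument per the methods. The deposited table holds the authors' FPKM for every gene symbol and liver. The submitters' processing notes name TopHat2 2.0.13, Bowtie2 2.2.3, SAMtools 0.1.19, Cufflinks 2.2.1 and mm10. The annotation and the use of strand in counting are not given in the sources used here. No test for counts was applied to them. In the name column 27 entries are dates.

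Genes that averaged 0.5 FPKM or more were tested as log2(FPKM + 1) with limma 3.58.1 in R 4.3.3, with an intensity trend, two-sided, with Benjamini-Hochberg adjustment over 11493 genes and a threshold of 0.05. Fold changes on this scale understate those of low genes. Single ratios and shares were compared by exact permutation. The code was tested on simulated data. Depth was estimated from steps of low values with GENCODE M21 transcript lengths less 150 bases. Fragment numbers are such estimates and cover counting error only. Alternatives were pseudocounts of 0.1 and 0.5, a filter of 1 FPKM or none, quantile normalization, scaling to a common median, limma without the trend, a replicate block and each liver left out in turn.

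Members, lists and tests were chosen with earlier results of these data known. Named were all 9 members, in each list the genes with an unadjusted p below 0.05 and groups without overlap, those with the largest rise and fall, markers by level, and the 3 nearest profiles of members whose groups did not overlap. Some genes that this rule names are not reported here. Pparg, Ppara, Lipg, marker genes beyond this rule and the ratios were named after their values were seen. Of 185 list genes 2 had no row, and Angptl8 was matched by its synonym Gm6484. Nothing in the labels states that livers came from separate mice, so p-values measure the spread between these samples.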

Additional observations from a re-analysis of the deposited data

How the results depend on the processing

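An adjusted p below 0.05 (limma) was reached by 0 of the 9 genes with another pseudocount, filter or variance trend, quantile or median scaling, the block, or any liver left out. Fabp1 and Slc27a2 were higher and Fabp2, Fabp4 and Slc27a1 were lower in 15 of 15 alternatives each. Slc27a2 was at only 0.040 with quantile normalization and 0.012 relative to the hepatocyte markers. Fabp1 had an adjusted p of 0.112 to 0.346 (limma) and a log2 change of 0.41 to 0.55 with each liver left out. Fabp4 was at -0.40 to -0.11 with each liver left out. Without a filter on low values, 1 member, Fabp2, had an unadjusted p below 0.05 in place of 3, with Fabp1 (0.0684) and Slc27a1 (0.0595) lost, and 1 gene of the whole table was called in place of 3. With each liver left out in turn these counts were 1 to 3 (1 without control liver 3) and 2 to 11 (7 without control liver 2, 5 without lipophagy liver 2, 11 without lipophagy liver 3). Slc27a1 had an unadjusted p of 0.0963 with quantile normalization, 0.0518 with the replicate block and 0.0721 to 0.142 without control liver 1 or 3 or lipophagy liver 1 or 2, and Fabp2 one of 0.0795 to 0.160 without control liver 2 or 3 or lipophagy liver 1 or 3. Fabp4 was at 0.0395 with quantile normalization and at 0.00510 without control liver 1 (limma). The median of the members was -0.10 with quantile normalization and -0.0050 to 0.082 with each liver left out. Quantile normalization turned Cd36 to -0.10, Dbi to -0.086, the other FABP superfamily genes to a median of -0.039 and the transcription factors to -0.062. It brought the medians of other membrane proteins of uptake to 0.0015, of lipases and their partners to 0.061, of PPAR-alpha targets to 0.027 and of PPAR-gamma storage genes to -0.064. Slc27a4 was at -0.0050 without control liver 1, and Fabp5, at -0.32 to 0.15 with each liver left out, was positive without control liver 3 (0.15) or lipophagy liver 1 (0.15). Slc27a4 ranged to 0.15. The FABP superfamily median ranged from -0.030 without control liver 1 to 0.18, with -0.0062 without lipophagy liver 1, and that of transcription factors from -0.0083 without control liver 2 to 0.11. The difference in the share of Fabp1 was 0.397 to 0.523 percentage points of summed FPKM and 0.486 to 0.730 of the FABP family with each liver left out. Relative to the mean of the 10 hepatocyte markers, an alternative chosen after seeing the data in which the median of all genes was -0.22, 20.7% of all genes had an adjusted p below 0.05 (2346 of 2379 lower). There Fabp2 was at -0.47 (adjusted p = 0.0378, limma) and Slc27a1 at -0.46 (adjusted p = 0.0301), Fabp1 was at 0.24, and Cd36, Slc27a4 and Dbi were at -0.21, -0.16 and -0.055. The cause of these shifts was not tested. Groups share the replicate numbers 1 to 3, but the deviations of same-numbered livers correlated at 0.25, 0.234 and -0.0565, and control liver 3 correlated best with lipophagy liver 2 (0.251), so the pairing was not taken as given. With the replicate block 43 genes were called and 0 of them were members. Depth limits Slc27a1 most, with 105 to 238 estimated fragments.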
